A study of Mus musculus with 13 samples.

Results

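Libraries of 2 mouse melanoma cell lines, numbered 6 and 16 and both titled NLS, were compared gene by gene. The lines differ widely in Adcy10, the gene of soluble adenylyl cyclase (sAC). Line 6 carried a high level of its mRNA and line 16 a level near 0, so their transcriptomes can be set side by side under the same culture labels. The comparison uses 6 of the 13 libraries of the series, chosen by their titles, 3 per line and paired by time label. The labels are t0 (no doxycycline), t6 (6 h in doxycycline) and t48 (48 h in doxycycline). The series was made to express sAC in chosen compartments of melanoma cells under doxycycline, an antibiotic that switches on genes placed under an inducible promoter. For lines 6 and 16 the compartment label is none at t0 and nuclear at t6 and t48. All 6 libraries are poly(A) RNA of cells grown in vitro. The other 7 libraries, 3 of NLS line 7 and 4 of the LacZ lines 10 and 12 (t0 and t48), are given beside them as levels for some of the genes. The t48 libraries titled LacZ also carry the compartment label nuclear, against their titles, so what they express is uncertain. They are called LacZ here by title. The labels do not say whether a line is 1 clone or how libraries of a line relate as cultures. With 1 line a side, differences that go with Adcy10 and other differences between these lines cannot be told apart. With the time label in the fit, p-values reflect how far the difference between these 2 lines varies over the 3 labels. That variation may be technical, and it does not measure how lines of a kind differ.

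Soluble adenylyl cyclase makes cyclic AMP (cAMP) from ATP and, unlike the membrane-bound cyclases, is stimulated by bicarbonate and calcium rather than by G proteins. Cyclic AMP activates protein kinase A and the Epac proteins, and protein kinase A phosphorylates CREB, a transcription factor that binds the cAMP response element. Genes that CREB induces quickly include the NR4A nuclear receptors, salt-inducible kinase 1 and cAMP phosphodiesterases, and the last of these break cAMP down again. In melanocytes, cAMP is known as the signal downstream of the melanocortin receptor that raises Mitf and pigment synthesis. In many cell types cAMP also restrains the YAP/TAZ coactivators and the transcription factor SRF, which respond to the actin cytoskeleton.

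The 6 libraries held 18902460 to 22553004 estimated reads each. Levels are CPM, read counts scaled to library size, and CPM of different genes are not compared with each other because they are not scaled to transcript length. Both lines had few transcripts of pigment genes. Mitf lay at 3.41 to 4.997 CPM in line 6 and 2.76 to 5.35 CPM in line 16, Tyr at 0.283 to 0.514 and 0.274 to 0.527 CPM, and Tyrp1, Mlana, Ednrb and Oca2 had no read. Collagen and Pdgfra transcripts were present in both lines, Ptprc (the leukocyte antigen CD45) had no read, and the summed level of the 9 fibroblast markers was 9969 to 16949 CPM in line 6 and 10594 to 17914 CPM in line 16. Pigment markers of the labelled cell type were thus mostly at or near 0. Of the fibroblast markers, Lum had no read and Thy1 no more than 0.0943 CPM.

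Adcy10 (ENSMUSG00000026567, chromosome 1, 165485183 to 165576774 on the plus strand of GRCm38) was used to choose the pair of lines, so its level is a description. Counts were added over all its transcripts, and whether reads came from the gene at this locus or from an introduced construct was not tested. In line 6 it stood at 366, 370.3 and 339.6 CPM at t0, t6 and t48, from 7205 to 8261 reads per library. In line 16 it stood at 0.671, 1.19 and 1.22 CPM, from 14 to 26 reads. The fitted log2 fold change was 8.45, and the log2 ratios at the 3 labels were 9.04, 8.26 and 8.09. Line 16 had 63 Adcy10 reads in all, which limits the precision of these ratios. Line 7 lay between the lines at 199, 180.1 and 199 CPM, and the LacZ libraries did not exceed 3 reads. Within line 6 the level at t0 was as high as under doxycycline, so the time labels do not order Adcy10, and every comparison here is between lines at 1 label.

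Differences between the lines were few and small beside those between time labels. Of the variation in log CPM over the 6 libraries and 11595 tested genes, 12.5% of the sum of squares went with the line, 72.8% with the time label and 14.7% with neither. At a given label 82 to 118 genes were at least 2-fold apart between the lines, while 406 to 530 were at least 2-fold apart between labels of 1 line. The quasi-likelihood test of edgeR, with the time label as a block, called 472 genes (4.07%) at a Benjamini-Hochberg adjusted p below 0.05. Of these 190 (1.64%) were higher in line 6 and 282 (2.43%) were lower. All 472 had the same direction at the 3 labels, as did 39.2% of all genes tested. The blocked test favours genes with a like difference at each label, so this agreement is no separate support. In 209 of the 472 the libraries of the lines did not overlap, against 822 of all genes tested (7.09%, with 3.43% higher and 3.66% lower in line 6). The median absolute log2 fold change of the called genes was 0.27, 413 of them (87.5%) were under 1.5-fold, and 25 (0.216%) reached 2-fold, 20 higher and 5 lower. Without the block, 1 gene was called, Adcy10. Without the t48 libraries 88 genes were called (46 higher, 42 lower), 82 of them among the 472. With counts scaled by transcript length 84 were called (50 higher, 34 lower), 78 of them among the 472, so the split between higher and lower differed from that of the 472. Without the t0 libraries it was 114 higher and 283 lower.

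**Figure D1:**
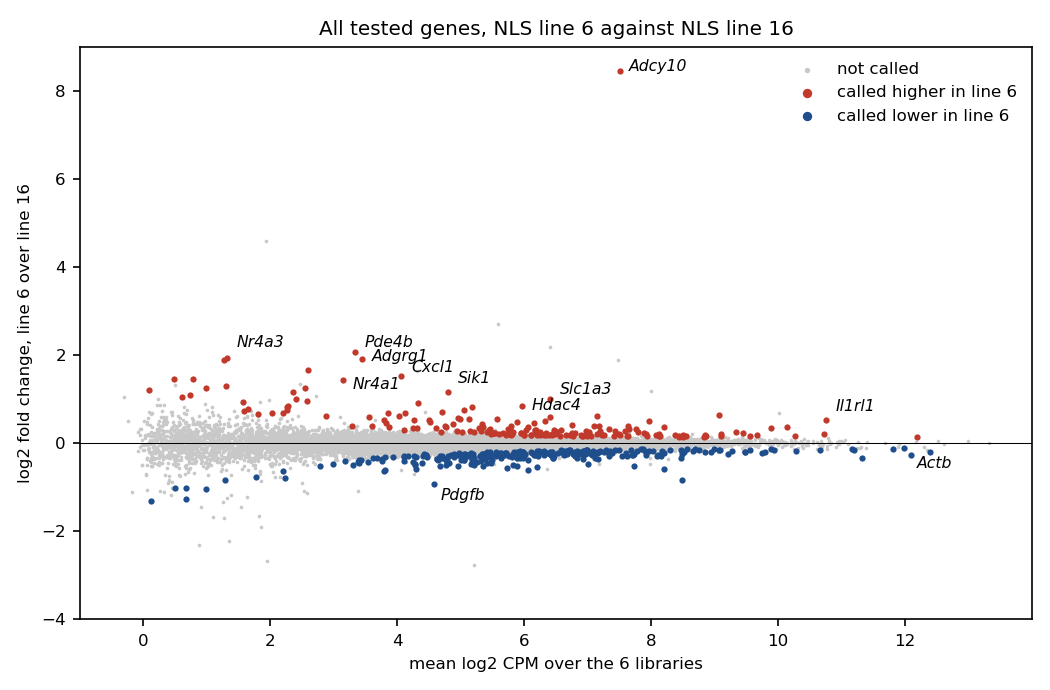
Log2 fold change of line 6 over line 16 (y axis) against mean log2 CPM over the 6 libraries (x axis) for the 11595 tested genes; red points were called higher and blue points lower in line 6. Adcy10 stands at 8.45 and every other called gene lies within 2.08 of 0, while the grey points far from 0 did not pass the test.

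Some of the genes that cAMP and CREB are known to induce were higher in line 6. Of 24 listed genes 22 were tested, 9 were higher in line 6 (40.9%, against 1.64% of all genes) and 0 were lower. DESeq2 called 7 higher and 0 lower, and at an unadjusted p below 0.05 edgeR had 10 higher and 2 lower (over all genes 7.92% higher and 9.4% lower). The median log2 fold change of the 22 was 0.18, against 0.01 over all genes, with 13 above 0 and 9 below. The 9 were the phosphodiesterases Pde4b and Pde4d, the receptors Nr4a1, Nr4a2 and Nr4a3, the kinase gene Sik1, Rgs2, Areg and Dusp1. Their count was 6 to 10 over the 10 alternative fits that keep the time label as a block, leaving aside the fit over all 13 libraries with a common time term, in which it was 2, and without the t6 libraries 1 member, Atf3, was called lower.

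CREB binds the 8-base palindrome TGACGTCA. Of 18 list members with a promoter in the RefSeq table for GRCm38.p6 (250 bases before to 50 after the start), 3 held it (16.7%), Areg, Btg2 and Dusp1. Over all genes in that table it was 549 of 27025 (2.03%), each gene counted once if any of its promoters held it. The list was written from known targets of cAMP and CREB, so its share describes the list and not these lines. Of the 8 called members with a promoter in the table, 2 held the palindrome. The palindrome reads the same on both strands, and its absence elsewhere says only that these letters are not in that window. The promoters of Areg (chr5:91139349-91139648, plus strand) and Dusp1 (chr17:26508423-26508722, minus strand), the called members that hold it, are printed to show where it lies. Capitals mark the palindrome, which starts at position -61 in Areg and -143 in Dusp1 relative to the start.
Areg: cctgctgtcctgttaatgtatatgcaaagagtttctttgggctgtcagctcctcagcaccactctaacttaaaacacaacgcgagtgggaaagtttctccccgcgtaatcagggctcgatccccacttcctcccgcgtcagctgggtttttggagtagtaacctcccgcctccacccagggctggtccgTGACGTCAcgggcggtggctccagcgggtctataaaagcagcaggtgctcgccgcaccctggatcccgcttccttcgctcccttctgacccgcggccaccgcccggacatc
Dusp1: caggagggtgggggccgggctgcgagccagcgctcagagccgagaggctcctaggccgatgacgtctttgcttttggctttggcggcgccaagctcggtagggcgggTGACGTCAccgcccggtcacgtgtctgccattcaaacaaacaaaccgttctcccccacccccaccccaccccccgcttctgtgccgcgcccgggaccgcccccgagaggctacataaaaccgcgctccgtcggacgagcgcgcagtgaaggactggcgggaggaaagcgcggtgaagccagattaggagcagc

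Among called genes the largest difference after Adcy10 was in Pde4b, a cAMP phosphodiesterase (ENSMUSG00000028525, chromosome 4, 102087543 to 102607259, plus strand). It measured 11.7, 16.1 and 19.8 CPM at t0, t6 and t48 in line 6 and 1.68, 4.20 and 5.78 CPM in line 16. All libraries of line 6 were above all libraries of line 16 (log2 fold change 2.08, SE 0.16, adjusted p = 8.22e-05). In each line the level was lowest at t0 and highest at t48. Line 7 stood at 17.6, 18.7 and 26.8 CPM, above line 6 at each label, and the LacZ lines at 1.29 and 1.90 CPM at t0 and 9.97 and 12.2 CPM at t48. Pde4d, a second enzyme of the same family (ENSMUSG00000021699, chromosome 13, 108449948 to 109953461, plus strand), had 21.98, 30.3 and 25.1 CPM in line 6 and 11.5, 16.9 and 12.5 CPM in line 16, again with no overlap (log2 fold change 0.92, SE 0.07, adjusted p = 1.50e-06). Its ratio between the lines was nearly the same at the 3 labels, with log2 values of 0.93, 0.84 and 1.0.

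The NR4A genes encode orphan nuclear receptors that act as immediate early transcription factors. Nr4a1 (ENSMUSG00000023034, chromosome 15, 101254269 to 101274795, plus strand) read 13.6, 12.9 and 11.3 CPM in line 6 and 4.22, 5.85 and 3.87 CPM in line 16 (log2 fold change 1.44, SE 0.12, adjusted p = 2.88e-06). The lines did not overlap. Line 16 was also below the LacZ lines, at 9.13 to 12.9 CPM, and line 7 had 3.61, 7.78 and 8.77 CPM. Nr4a3 was at 3.68, 3.83 and 3.72 CPM in line 6, a flat course over the labels, and at 0.671, 1.10 and 1.17 CPM in line 16 (log2 fold change 1.94, SE 0.23, adjusted p = 6.74e-05). For Nr4a3 it was line 6 that stood apart, since line 7 had 1.04, 1.13 and 1.47 CPM and the LacZ lines 0.223 to 0.913 CPM. Nr4a2 was at 6.38, 9.48 and 4.71 CPM in line 6 and 3.26, 3.52 and 2.33 CPM in line 16 (log2 fold change 1.15, SE 0.15, adjusted p = 2.12e-04). Line 7 had 4.56, 6.60 and 3.47 CPM of Nr4a2. The LacZ lines had 10.8 and 10.9 CPM at t0, above line 6, and 4.23 and 4.46 CPM at t48, below it. The call of Nr4a1 was lost in the fits with all 9 NLS libraries (adjusted p = 0.119) and with all 13 libraries and a time term per line type (0.0734), and that of Nr4a2 with length-scaled counts (0.0613).

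Sik1 encodes a kinase that CREB induces and that restrains CREB coactivators in turn. It was at 40.6, 28.1 and 45.5 CPM in line 6 and at 14.1, 16.2 and 20.3 CPM in line 16 (log2 fold change 1.16, SE 0.14, adjusted p = 0.0155). Every library of line 6 was above every library of line 16, and line 7 lay between at 23.8, 20.8 and 31.3 CPM. Areg, which encodes the EGF receptor ligand amphiregulin, was highest at t6 in both lines, with 5.01, 15.4 and 2.26 CPM in line 6 and 1.97, 8.82 and 1.27 CPM in line 16 (log2 fold change 0.96, SE 0.15, adjusted p = 0.00101). The ranges overlapped, and line 6 was higher at each label. At t0 and at t48 the LacZ lines had more Areg than either, 14.8 to 26.0 CPM. Rgs2, an inhibitor of G protein signalling, had 2.35, 2.38 and 0.849 CPM in line 6 and 0.623, 1.10 and 0.318 CPM in line 16, with overlapping ranges (log2 fold change 1.45, SE 0.28, adjusted p = 0.0057). Dusp1, a MAP kinase phosphatase, differed least of the 9 (log2 fold change 0.23, SE 0.06, adjusted p = 0.0262), with 58.4, 38.6 and 52.6 CPM against 47.6, 32.7 and 47.0 CPM. Without the t48 libraries the call of Sik1 was lost (adjusted p = 0.257), and that of Areg with length-scaled counts (0.0725) and in the fit over 13 libraries with a time term per line type (0.111). Rgs2 lost its call without the t0 (0.0772) or t48 libraries (0.0993). Dusp1 lost it in 6 of the 10 alternative fits, DESeq2 among them (0.312), with adjusted p up to 0.445.

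**Figure D2:**
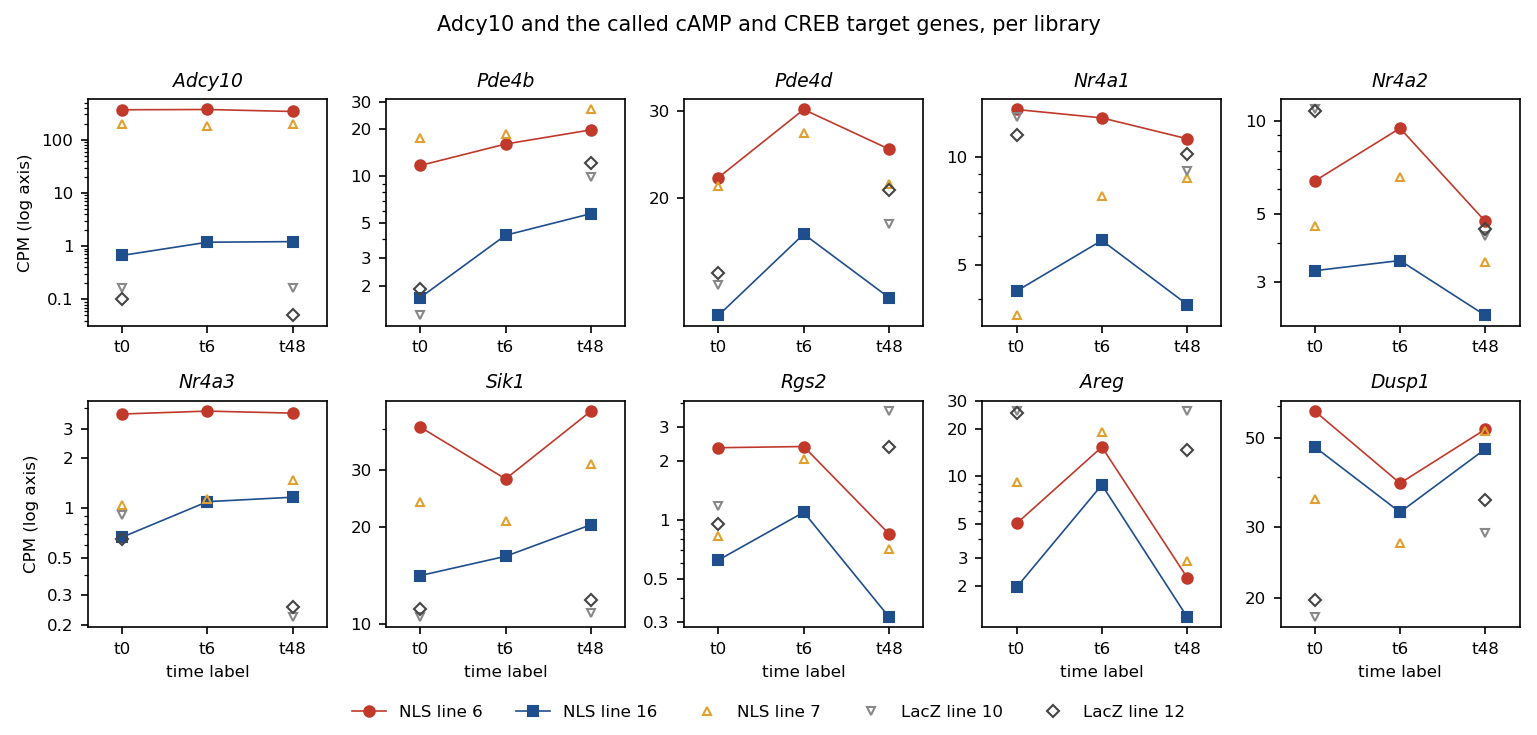
CPM (log axis) of Adcy10 and the 9 called cAMP and CREB targets by time label; filled symbols joined by lines are lines 6 and 16, open symbols the other lines, 1 point per library, and the LacZ line 12 library with no Adcy10 read is drawn at 0.05 CPM. Line 6 lies above line 16 at each label in each panel, while the place of line 7 and of the LacZ lines differs from gene to gene.

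The other 13 tested members of the list did not pass. Crem, whose inducible products repress CREB targets, was at 2.13, 2.90 and 2.07 CPM in line 6 and 1.49, 2.38 and 2.12 CPM in line 16 (log2 fold change 0.25, SE 0.21, adjusted p = 0.591). Fos (log2 fold change 0.14, adjusted p = 0.811) and Egr1 (-0.15, 0.118), the classical immediate early genes, overlapped between the lines. Per1, a clock gene with CREB sites, came closest (log2 fold change 0.22, SE 0.07, adjusted p = 0.0848), at 38.5, 38.1 and 40.8 CPM against 29.1, 33.1 and 38.7 CPM. It passed with no filter on low counts (0.011). Per2, a clock gene of the same list, had the opposite sign (log2 fold change -0.21, SE 0.07, adjusted p = 0.115). Over the 22 tested members the lines did not overlap in 6 higher and 1 lower in line 6 (over all genes 3.43% and 3.66%). Junb had its lowest ratio at t6, with log2 ratios of -0.18, -1.55 and -0.35 at t0, t6 and t48, and an adjusted p of 0.557. The ratios of the 9 called genes were positive at all 3 labels, and agreement over the labels is what the blocked test favours.

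**Figure D3:**
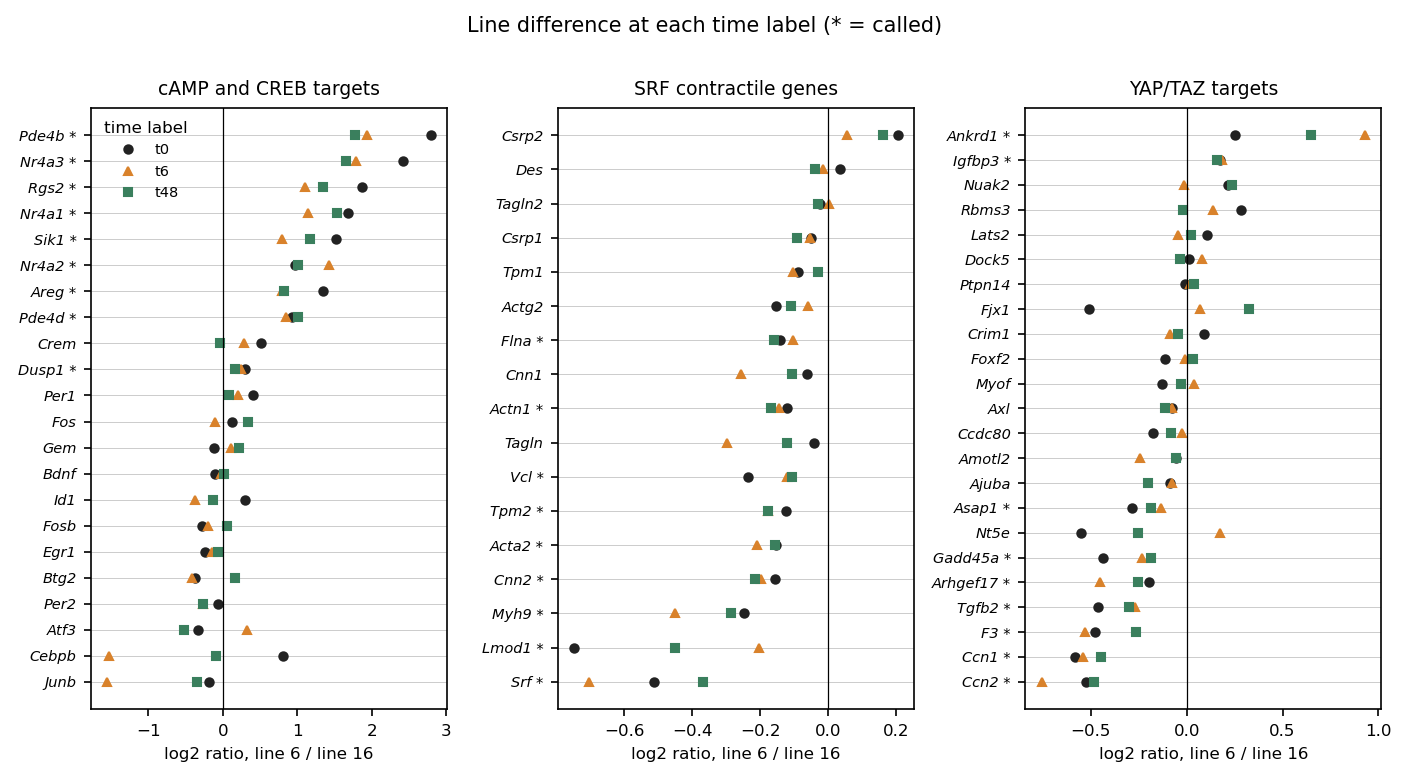
Log2 ratio of line 6 to line 16 (x axis) at each time label for the tested members of 3 gene lists, 1 row per gene, with an asterisk on called genes. The called cAMP and CREB targets lie to the right of 0 at all 3 labels, the called SRF contractile genes to the left, and the YAP/TAZ targets on both sides. Every called gene kept its direction over the labels, which the blocked test favours.

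Few genes of the machinery that makes, senses and degrades cAMP were called. Of 42 listed genes 30 were tested, 2 were higher in line 6 (6.67%, against 1.64% of all genes) and 0 were lower (against 2.43%). DESeq2 called 1 and 0. At an unadjusted p below 0.05 edgeR had 7 higher and 3 lower, 33.3% of the list against 17.3% of all genes. The median log2 fold change was -0.01. Pde3b, a phosphodiesterase that cGMP inhibits, was at 56.1, 84.1 and 64.4 CPM in line 6 and 39.0, 63.1 and 44.7 CPM in line 16 (log2 fold change 0.48, SE 0.05, adjusted p = 2.11e-05). Line 6 was higher than line 16 at each label although the ranges overlapped. Line 7 had 70.0, 95.7 and 72.4 CPM of Pde3b, above line 6 at each label. The LacZ lines had 83.6 to 89.3 CPM, above line 6 at t0 and at t48. Akap13, an anchoring protein for protein kinase A, differed by less (log2 fold change 0.18, SE 0.05, adjusted p = 0.0365), and its call was lost when the libraries of any 1 label were left out (adjusted p = 0.068 without t0, 0.158 without t6 and 0.379 without t48), with DESeq2 (0.364), with length-scaled counts (0.258) and in the fits over 9 (0.156) and 13 libraries (0.134 with a time term per line type). Rapgef3, which encodes the cAMP sensor Epac1, was not called, at 6.38, 4.39 and 4.81 CPM against 2.97, 4.61 and 2.86 CPM (adjusted p = 0.162). It passed with no filter on low counts (0.0106) and without the t6 libraries (0.00771).

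Outside the cAMP lists, the genes higher in line 6 included a receptor, a transporter and a chromatin enzyme. Adgrg1, an adhesion G protein-coupled receptor (ENSMUSG00000031785, chromosome 8, 94974751 to 95014217, plus strand), was at 16.1, 12.2 and 22.1 CPM in line 6 and 3.16, 3.75 and 6.57 CPM in line 16, with no overlap (log2 fold change 1.91, SE 0.12, adjusted p = 1.72e-07). Line 7 lay between at 11.5, 9.53 and 15.1 CPM, and the LacZ libraries ranged from 4.96 to 39.4 CPM. Slc1a3, a glutamate transporter (ENSMUSG00000005360, chromosome 15, 8634124 to 8710764, minus strand), was at 81.6, 131 and 125 CPM against 39.8, 66.1 and 62.0 CPM (log2 fold change 1.01, SE 0.04, adjusted p = 6.36e-10). Its ratio hardly varied with the label, with log2 values of 1.03, 0.99 and 1.01. Line 16 was below all other libraries of the series at the same label, since line 7 had 117, 146 and 161 CPM and the LacZ lines 157.8 to 170.0 CPM.

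Hdac4, a class IIa histone deacetylase and known substrate of salt-inducible kinases, was at 78.5, 71.1 and 88.5 CPM in line 6 and 36.7, 43.9 and 51.7 CPM in line 16 (log2 fold change 0.85, SE 0.07, adjusted p = 7.64e-05). Line 7 was above line 6 at each label, at 84.1, 82.2 and 108 CPM, and the LacZ lines lay at 29.98 to 37.4 CPM, below line 16 at t0 and at t48. Syt13, a synaptotagmin of membrane traffic, was at 20.7, 38.3 and 75.8 CPM against 9.78, 21.2 and 49.4 CPM (log2 fold change 0.81, SE 0.08, adjusted p = 2.47e-05), higher in line 6 at each label with overlapping ranges. Plau, the urokinase plasminogen activator, was at 148, 189 and 175 CPM in line 6 and 86.0, 125 and 125 CPM in line 16 (log2 fold change 0.62, SE 0.05, adjusted p = 1.62e-05). Ramp3, which pairs with calcitonin family receptors, peaked at t6 in both lines, with 4.30, 14.1 and 1.56 CPM against 1.34, 8.54 and 0.848 CPM (log2 fold change 1.01, SE 0.18, adjusted p = 0.00429). Line 7 had 9.73, 23.3 and 3.07 CPM of Ramp3, and the LacZ lines 16.7 to 22.2 CPM, above lines 6 and 16 at t0 and at t48. The call of Ramp3 was lost without the t48 libraries (adjusted p = 0.102) and with length-scaled counts (0.109).

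Vdr, which encodes the vitamin D receptor, was at least 2-fold higher in line 6 at every label but did not pass the test, and it was chosen after its values were seen. It measured 297, 164 and 375 CPM in line 6 and 62.3, 52.9 and 110.4 CPM in line 16, with no overlap (log2 fold change 1.88, SE 0.17, adjusted p = 0.0785). It passed in 5 of the 10 alternative fits, DESeq2 (adjusted p = 2.99e-20), length-scaled counts (0.017), the fits over 9 (0.00163) and 13 libraries (1.77e-04 with a time term per line type), and without the t0 libraries (3.16e-09). Line 7 stood at 148, 97.5 and 231 CPM, and the LacZ lines at 30.8 to 37.2 CPM, below line 16. Of 10323 genes with a mean log2 CPM of at least 2, 9 were at least 2-fold higher in line 6 at all 3 labels and 0 were at least 2-fold lower; these are descriptions with 1 library per line and label. The 9 were Adcy10, Adgrg1, Cxcl1, Nr4a1, Pde4b, Vdr, the mitochondrial mt-Atp8 and the predicted genes Gm15542 and Gm47611, whose reads near-identical copies can share.

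Genes of secreted signals differed in both directions. A list of 36 chemokine and cytokine genes also held receptors and the NF-kappaB inhibitors Tnfaip3 and Nfkbia, while some chemokine receptors were not on it. Of its genes 17 were tested, 6 were higher in line 6 (35.3%, against 1.64% of all genes) and 3 lower (17.6%, against 2.43%). The median log2 fold change was -0.01. Cxcl1, a ligand of CXCR2 that draws neutrophils, was at 33.6, 15.5 and 24.3 CPM in line 6 and 10.9, 7.04 and 6.99 CPM in line 16 (log2 fold change 1.52, SE 0.11, adjusted p = 3.12e-06). Its libraries did not overlap between the lines, and the LacZ lines, at 6.29 to 10.2 CPM, were below line 16 at the same label. Il1rl1, the receptor of interleukin 33, was at 2278, 2038 and 1717 CPM in line 6 and 1667, 1393 and 1149 CPM in line 16, a smaller difference with a narrow error (log2 fold change 0.52, SE 0.04, adjusted p = 1.72e-07). Ccl7, a monocyte chemokine, was at 88.1, 81.7 and 75.4 CPM against 61.8, 58.8 and 56.6 CPM (log2 fold change 0.46, SE 0.05, adjusted p = 1.58e-05). In the other direction Cxcl12, the ligand of CXCR4, was at 69.1, 108 and 144 CPM in line 6 and 101, 156 and 186 CPM in line 16 (log2 fold change -0.48, SE 0.05, adjusted p = 8.85e-06). The remaining called members were Ccl2, Lif and Ackr3, higher, and Tnfaip3 and Nfkbia, inhibitors of NF-kappaB and lower. The count was 3 to 6 higher and 1 to 4 lower over the 10 alternative fits.

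Of 31 tested genes of growth factors and their receptors 7 were higher in line 6 (22.6%, against 1.64% of all genes) and 2 lower (6.45%, against 2.43%), with a median log2 fold change of 0.05. Fgf7, a ligand for epithelial FGF receptors, was at 286, 387 and 314 CPM in line 6 and 207, 307 and 255 CPM in line 16 (log2 fold change 0.36, SE 0.04, adjusted p = 4.57e-05). Pdgfra, a receptor of platelet-derived growth factor, was at 171, 200.2 and 165 CPM against 140.4, 158 and 130.4 CPM with no overlap (log2 fold change 0.32, SE 0.04, adjusted p = 1.31e-04). The ligand genes Pdgfb and Pdgfa were lower in line 6. Pdgfb was at 11.6, 19.1 and 17.4 CPM in line 6 and 21.4, 47.0 and 25.9 CPM in line 16 (log2 fold change -0.94, SE 0.14, adjusted p = 0.032), and Pdgfa at 25.8, 23.2 and 22.5 CPM against 29.4, 34.8 and 28.3 CPM (log2 fold change -0.37, SE 0.07, adjusted p = 0.00823). The call of Pdgfb was lost without the t0 libraries (adjusted p = 0.209), in the fit over 9 NLS libraries (0.0973) and with length-scaled counts (0.0562). That of Pdgfa was lost without the t6 (0.0904) or t48 libraries (0.196), with DESeq2 (0.1) and with length-scaled counts (0.405), which moved its log2 fold change to -0.22. The list had 3 to 7 members higher and 0 to 3 lower over the 10 alternative fits.

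Among other ligands, Tgfb3 was higher in line 6 (log2 fold change 0.38, SE 0.04, adjusted p = 3.42e-05) and Tgfb2 lower (log2 fold change -0.35, SE 0.06, adjusted p = 0.00133), so the TGF-beta and BMP list, with 2 of 24 tested members higher (8.33%, against 1.64% of all genes) and 3 lower (12.5%, against 2.43%), had no single direction. Over the 10 alternative fits 1 to 3 were higher and 0 to 3 lower. Tgfb3 was at 219, 166 and 289 CPM in line 6 and 159, 135 and 221 CPM in line 16. Tgfb2 lost its call without the t48 libraries (adjusted p = 0.0959), in the fits over 9 (0.128) and 13 libraries (0.0801 with a time term per line type) and with length-scaled counts (0.0719). Of 28 tested Wnt genes 3 were higher (10.7%, against 1.64% of all genes) and 1 lower (3.57%, near the 2.43% of all genes), and 1 to 3 were higher and 0 to 2 lower over the 10 alternative fits. Fzd1, a Wnt receptor, was at 53.9, 56.9 and 56.6 CPM in line 6 and 33.3, 39.2 and 41.5 CPM in line 16 (log2 fold change 0.56, SE 0.06, adjusted p = 2.47e-05), with all libraries of line 6 above those of line 16. The LacZ lines had 1.503 to 4.03 CPM of Fzd1, below both. Dkk2, a secreted Wnt modulator, was at 29.6, 16.8 and 80.3 CPM against 19.2, 11.4 and 39.95 CPM (log2 fold change 0.76, SE 0.08, adjusted p = 1.20e-04), and its call was lost in the fits that added the other NLS lines or all lines (adjusted p up to 0.11).

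Ccn1 and Ccn2, matricellular proteins that YAP/TAZ and SRF induce, were lower in line 6. Ccn1 was at 162, 171 and 187 CPM in line 6 and 243, 249.9 and 255 CPM in line 16 with no overlap (log2 fold change -0.53, SE 0.04, adjusted p = 9.60e-07). Ccn2 was at 185, 138 and 386 CPM against 267, 233 and 540.1 CPM (log2 fold change -0.59, SE 0.05, adjusted p = 1.20e-05). Its level at t48 in line 6 passed that of line 16 at t0, so the ranges overlapped, but line 6 was lower at each label.

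YAP/TAZ targets differed in both directions. Of 23 tested members 7 were lower (30.4%, against 2.43% of all genes), Ccn1, Ccn2, F3, Tgfb2, Asap1, Arhgef17 and Gadd45a, and 2 were higher (8.70%, against 1.64%), Ankrd1 and Igfbp3. The median log2 fold change was -0.09. F3, the tissue factor gene, was at 21.7, 24.1 and 52.9 CPM in line 6 and 30.3, 34.8 and 63.6 CPM in line 16 (log2 fold change -0.42, SE 0.07, adjusted p = 0.00111), and its call was lost with length-scaled counts (adjusted p = 0.0679). Ankrd1, a muscle ankyrin repeat protein, had the opposite direction, at 32.4, 6.73 and 39.3 CPM against 27.2, 3.52 and 25.1 CPM (log2 fold change 0.52, SE 0.10, adjusted p = 0.0194). Yap1 itself was at 86.6, 81.5 and 84.1 CPM in line 6 and 86.4, 83.7 and 79.3 CPM in line 16 (log2 fold change 0.01, SE 0.05, adjusted p = 0.925). Of the Hippo pathway genes that control YAP, 1 of 23 was higher, Wwc1, and 1 lower, Frmd6 (4.35% each, against 1.64% and 2.43% of all genes), and DESeq2 called 0 of them. Without the t48 libraries 3 YAP/TAZ targets were called lower, and Ankrd1 (adjusted p = 0.337) and Igfbp3 (0.32) lost their calls. With length-scaled counts 2 were called lower. The call of Ankrd1 was also lost with length-scaled counts (0.205) and in the fits over 9 (0.427) and 13 libraries (0.374 with a time term per line type).

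Srf and several of the contractile genes it drives were lower in line 6. Of 17 tested members 9 were lower in line 6 (52.9%, against 2.43% of all genes) and 0 higher. DESeq2 also called 9 lower and 0 higher, and at an unadjusted p below 0.05 edgeR had 12 lower and 1 higher. The median log2 fold change was -0.15, against 0.01 over all genes, and 16 of the 17 were below 0. Srf, the transcription factor itself, was at 46.3, 46.0 and 51.9 CPM in line 6 and 66.0, 74.9 and 67.0 CPM in line 16 with no overlap (log2 fold change -0.53, SE 0.06, adjusted p = 6.73e-05). Myh9, the nonmuscle myosin heavy chain, was at 2076, 2293 and 2353 CPM against 2464, 3136 and 2867 CPM (log2 fold change -0.33, SE 0.04, adjusted p = 8.41e-05). The other 7 were Cnn2, Acta2, Lmod1, Tpm2, Vcl, Actn1 and Flna. All 9 were under 1.5-fold.

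Acta2, smooth muscle actin, differed less between the lines than between the labels of a line. It stood at 699, 938 and 1838 CPM over the labels in line 6 and at 777, 1084 and 2049 CPM in line 16 (log2 fold change -0.18, SE 0.03, adjusted p = 0.00582). The cytoplasmic actins were lower in line 6 as well, Actb at 4086, 3667 and 4038 CPM against 4791, 4716 and 4668 CPM (log2 fold change -0.27, SE 0.04, adjusted p = 1.82e-04) and Actg1 at 5064, 5189.7 and 4649 CPM against 5706, 6132 and 5204 CPM (log2 fold change -0.20, SE 0.03, adjusted p = 0.00156). The 4 smooth muscle markers, Acta2 among them, summed to 716 to 1892 CPM in line 6 and 794 to 2107 CPM in line 16, and their part in the result was not tested. Without the t48 libraries 2 list members were called lower, with length-scaled counts 2, and in the fit over 9 NLS libraries 4. Csrp2 was called higher without the t6 libraries and with no filter on low counts. The calls of Acta2 (adjusted p = 0.259) and Actg1 (0.171) were lost without the t48 libraries, and that of Acta2 also with length-scaled counts (0.0667) and in the fits over 9 (0.61) and 13 libraries (0.553 with a time term per line type).

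**Figure D4:**
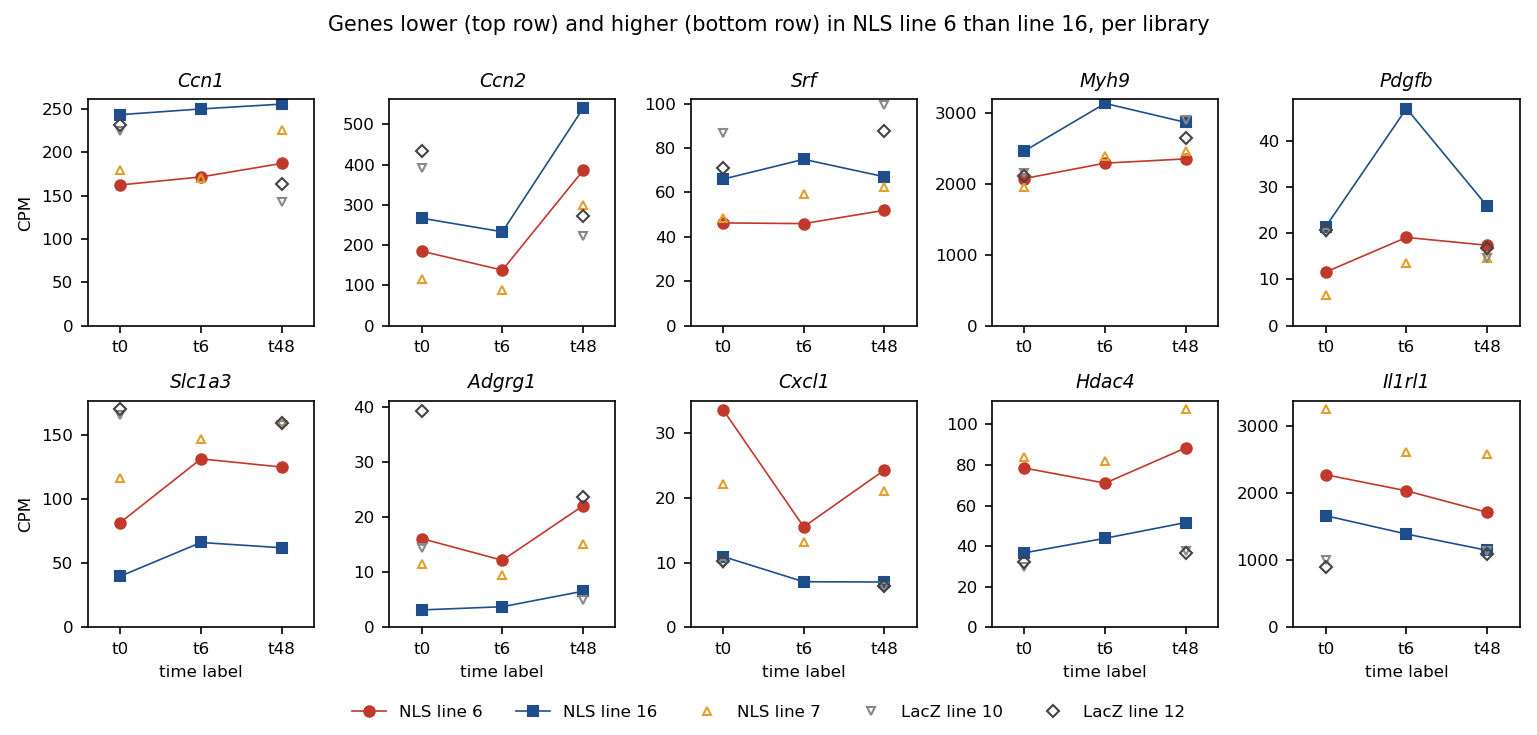
CPM (linear axis from 0) by time label of 5 genes lower and 5 genes higher in line 6, 1 point per library, with lines 6 and 16 as filled joined symbols and the other lines as open symbols. Ccn1 in line 16 lies at 243 to 255 CPM, above all other libraries of the same label, and Slc1a3 in line 16 lies at 39.8 to 66.1 CPM, below them.

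Several lists had no called gene. Those with at least 10 tested members were picked for that, so their count of 0 by edgeR describes the choice. Over these 6 lists (G1/S and replication, cyclin D and CDK inhibitors, MHC class I, axon guidance, pH transporters and the circadian clock), 0 of 120 distinct tested genes were called by edgeR (against 4.07% of all genes) and 0 by DESeq2. At an unadjusted p below 0.05 there were 8 higher and 15 lower, 19.2% of the 120 against 17.3% of all genes. Cdkn1a, which encodes the cell cycle inhibitor p21, was the nearest of these, at 38.6, 39.7 and 37.9 CPM in line 6 and 44.2, 46.6 and 42.7 CPM in line 16 (log2 fold change -0.20, SE 0.06, adjusted p = 0.0567). With no filter on low counts edgeR called members of these lists, among them Cdkn1a, lower (adjusted p = 0.0309), and Per1, higher (0.011). Over the 10 alternative fits up to 2 clock genes were called higher and up to 2 genes of the pH list lower. Of the 17 pigment lineage genes 4 had enough reads to be tested and none was called (0 also by DESeq2, and 0 at an unadjusted p below 0.05), Mitf among them (log2 fold change -0.04, SE 0.17, adjusted p = 0.944). A p above the threshold does not show that levels were equal.

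**Figure D5:**
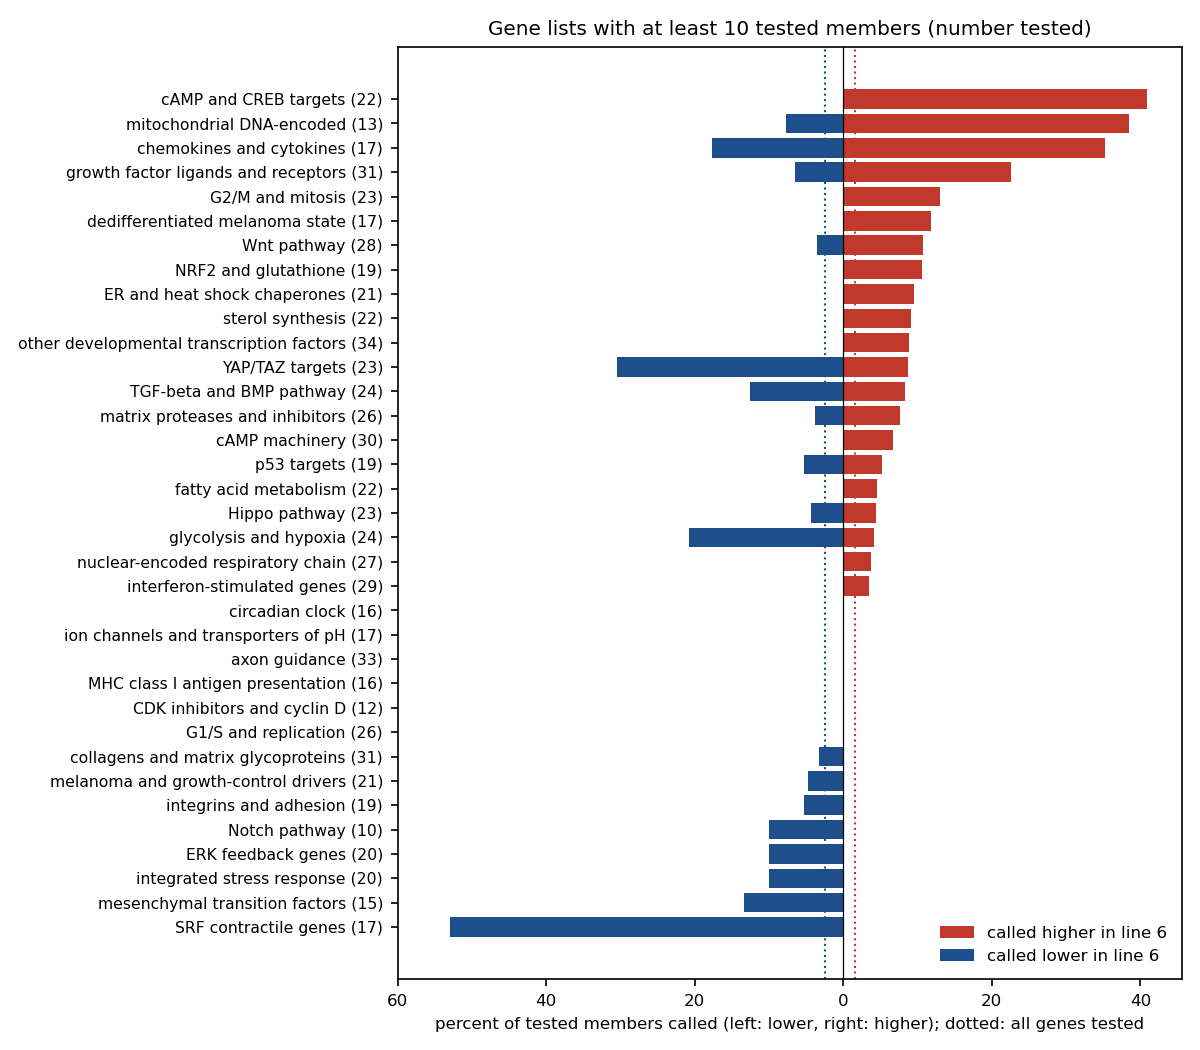
Percent of tested members called higher (red, right) and lower (blue, left) in line 6 for the gene lists with at least 10 tested members, the number tested in brackets; dotted lines mark 1.64% and 2.43%, the shares over all genes. The cAMP and CREB targets reach 40.9% on the right and the SRF contractile genes 52.9% on the left.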

How the data were processed

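Per the labels' protocols, Trizol RNA went into a stranded TruSeq mRNA preparation read from both ends. The submitters' processing notes name Salmon 1.2.0 and the build GRCm38. Its options and transcript set were not given in the sources used here. The deposited values are, for each transcript, an estimated count and a TPM (a unit scaled by transcript length), beside the transcript lengths. Salmon divides a read among the transcripts it matches, so near-identical genes and pseudogenes have uncertain values.

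Of 116546 transcripts, 115977 (99.5%) were matched by identifier to the GENCODE M21 annotation of GRCm38. Counts were added up per gene (35498 genes) and rounded to whole numbers, and unmatched transcripts (0.124 to 0.153% of reads in the 6 libraries) were left out. The 6 libraries held 18902460 to 22553004 reads. Genes at a CPM of 1 or more in at least 3 of the 6 libraries (11595) were tested with edgeR 4.0.16 in R 4.3.3 (TMM normalization, robust quasi-likelihood fit, line and time label as terms, Benjamini-Hochberg adjustment over all genes, called below 0.05). Standard errors were derived from the test statistic, and none is given for Adcy10, for which that value fell below the counting error. Printed CPM use TMM library sizes over all 13 libraries, and ratios at a label use a prior count of 0.5. DESeq2 1.42.0, other filters, other samples in the fit, length-scaled counts made from the deposited TPM, and fits without the block or without the libraries of 1 label were alternatives. The fitting step was tested on simulated data.

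The time label was used as a block since the labels share it between the lines. Deviations from the line means correlated across genes at r = 0.622 to 0.735 in the 3 pairs of libraries with the same label. In the 6 pairs with different labels r was -0.429 to -0.223. Deviations sum to 0 within a line, so negative values there follow from the positive ones and add no further support. No 2 libraries of a line held the same counts. They are at different time labels, so this says nothing on how they vary as replicates.

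The lines compared, the 45 gene lists and the genes named were chosen with earlier results of these data known. Genes were named by rule: the 15 largest increases and 15 largest decreases among called genes with a mean log2 CPM of at least 2 and 1 direction at all labels, the 10 largest differences in CPM, up to 3 called members per list and direction, and 8 fixed genes. Rgs2, Dusp1, Vdr, Rapgef3, Fos, Egr1, Junb, Atf3, Slc16a3, Csrp2 and other list members named beside their lists fall outside it. A gene that the rule names is not reported here.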

Additional observations from a re-analysis of the deposited data

Results flagged for a closer look

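Adcy10 was also present outside the comparison, in the NLS line 7 libraries. Its mean there was 193 CPM ± 11.1 (SD, n = 3), with 199, 180.1 and 199 CPM at t0, t6 and t48, while the highest LacZ library had 0.167 CPM, equal to 3 reads. The value was set apart because these libraries do not enter the comparison of lines 6 and 16.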

How the results depend on the processing

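The number of called genes depended on the setting. Against 472 genes (190 higher, 282 lower, 25 at least 2-fold), no filter on low counts gave 869 (369, 500 and 70) of 20081 tested, all 472 among them. The fit over 9 NLS libraries gave 277 (120 and 157), the fit over all 13 libraries with a common time term 10 (10 higher, 0 lower, 6 at least 2-fold), and a fit over 13 libraries with a time term within the NLS and within the LacZ lines, chosen after seeing the data, 304 (126 and 178). Length-scaled counts gave 84 (50 and 34, 12 at least 2-fold) and DESeq2 223 (100 and 123). Without the replicate block of time labels 1 gene was called, Adcy10 (1 higher, 0 lower, 1 at least 2-fold), against 472 with the block at the same threshold. At an unadjusted p below 0.05, a looser threshold, the edgeR fit with the block had 2008 genes (17.3% of those tested). Leaving out the libraries of 1 label gave 88 to 414 called genes, 46 to 188 higher, 42 to 283 lower and 18 to 32 at least 2-fold, with the fewest calls without t48. The share of calls that were higher in line 6 was 40.3%, and 59.5% with length-scaled counts, 28.7% without t0 and 52.3% without t48. DESeq2 size factors and the edgeR filter kept the counts within 1.5 times. In all 10 settings with the block, apart from the fit with a common time term, 44 genes were called (28 higher, 16 lower), and 28 of the 99 called genes named by the rule were among them. None of the 99 changed direction in any setting (0 sign changes). The cause of these shifts was not tested. Leaving out the libraries of 1 label leaves 2 pairs, and the design has 1 line a side.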

Other observations

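Of 13 mRNAs encoded by mitochondrial DNA 5 were higher in line 6 (38.5%, against 1.64% of all genes) and 1 lower (7.69%, against 2.43%), with a median log2 fold change of 0.28. The genes called higher were mt-Nd2, mt-Nd1, mt-Nd4l, mt-Cytb and mt-Nd4. mt-Nd2, a subunit of complex I, was at 671, 626 and 656 CPM in line 6 and 441, 429 and 389 CPM in line 16 with no overlap (log2 fold change 0.63, SE 0.04, adjusted p = 1.72e-07), and mt-Co1, a subunit of complex IV, at 3759, 3463 and 3009.9 CPM against 4139.7, 3747 and 3355 CPM (log2 fold change -0.14, SE 0.03, adjusted p = 0.0189). Nuclear copies of these genes can share their reads, and mt-Nd3 was listed at 0 in the t0 library of line 16 and at 63.2 and 39.8 CPM in its others. In the fit over 13 libraries with a time term within the NLS and within the LacZ lines the calls of mt-Nd2 (adjusted p = 0.0853), mt-Nd1 (0.182), mt-Nd4l (0.546) and mt-Co1 (0.749) were lost, and that of mt-Co1 also in the fit over 9 NLS libraries (0.218), with length-scaled counts (0.0567) and without the t0 (0.0583) or t48 libraries (0.453). In that fit over 13 libraries 0 of the 13 mRNAs were called in either direction, and over the 10 alternative fits with the block 0 to 7 were called higher. Of 27 nuclear-encoded respiratory chain genes 1 was higher, Cycs, and 0 were lower (edgeR; 0 also by DESeq2, and 1 at an unadjusted p below 0.05). That is 3.70% higher, against 1.64% of all genes. The call of Cycs was lost without the t0 (adjusted p = 0.0707) or t48 libraries (0.4), with DESeq2 (0.33), with length-scaled counts (0.293) and in the fits over 9 NLS (0.07) and 13 libraries (0.0577 with a time term per line type).

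Glycolysis and hypoxia genes were lower in line 6 in 5 of 24 tested members (20.8%, against 2.43% of all genes) and higher in 1 (4.17%, against 1.64%), with a median log2 fold change of -0.09 and 20 of 24 below 0. Slc16a3, a lactate exporter, was at 3.37, 0.934 and 3.30 CPM in line 6 and 5.32, 2.10 and 5.09 CPM in line 16 (log2 fold change -0.76, SE 0.18, adjusted p = 0.0251). Bnip3, a mitophagy receptor that hypoxia induces, was at 75.3, 54.7 and 102 CPM against 87.3, 68.2 and 124 CPM (log2 fold change -0.27, SE 0.05, adjusted p = 0.00163). Slc2a1, a glucose transporter, Pdk1 and Pfkl were the other lower members, and Vegfa the higher one. All 6 calls were lost without the t48 libraries, with adjusted p = 0.144 for Bnip3 and 0.224 for Slc2a1, and with length-scaled counts. Slc16a3 lost its call without the libraries of any 1 label (0.0649 to 0.252) and with DESeq2 (0.354).

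By position, the median log2 fold change of the tested genes lay between -0.02 and 0.04 on the autosomes and X. Medians over windows of 25 consecutive tested genes ran from -0.20 to 0.13, and 0 of 11091 windows reached 0.5 in size. This is a description of expression along the chromosomes and no test was made.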
